A study of Oryza sativa Indica Group with 6 samples.

Results

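Isocitrate lyase, pyruvate orthophosphate dikinase (PPDK) and a vacuolar proton-pumping pyrophosphatase (V-PPase) are each represented here by 1 probe of a rice oligonucleotide array. The 3 probes are those whose gene name in the array files is AK063353 (isocitrate lyase), AK065739 (the cytosolic form of PPDK) or AK102146 (V-PPase), out of 21495 gene probes. All 3 passed the filter on dim probes, under which 2 or more arrays had to show the spot well above background in either dye. They were selected from measured values of these arrays: the probes for PPDK and V-PPase had been seen among the largest excesses of one genotype after 24 h of submergence, and the value that brought in isocitrate lyase is not recorded. Every difference that involves the 24 h arrays is therefore given as a description with no test, and tests are given for the untreated and the 15 min arrays.

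Leaf RNA of the submergence-tolerant rice FR13A and the susceptible rice IR24 was hybridised together on 6 Agilent 2-colour arrays, 2 for each of 3 groups. The constitutive group was untreated and harvested 14 days after sowing, another group was submerged for 15 min and harvested on day 14, and the last was submerged for 24 h and harvested on day 15. All plants grew in growth chambers, and the submerged ones were held under water in transparent polythene bags. No untreated plants of day 15 were among these groups, so submergence for 24 h and 1 more day of age cannot be told apart. Replicate 1 of each group had FR13A in Cy5 and IR24 in Cy3, and replicate 2 had the dyes exchanged. Nothing in the labels says that the replicates came from separate plants, so the p-values measure the spread between these arrays, which may be technical.

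Isocitrate lyase splits isocitrate into succinate and glyoxylate and is the entry step of the glyoxylate cycle, which lets plant cells turn acetyl units from fatty acids into sugars, as in germinating seeds and senescing leaves. PPDK interconverts pyruvate and phosphoenolpyruvate, with ATP and phosphate on one side and AMP and pyrophosphate on the other. V-PPase sits in the vacuolar membrane and pumps protons into the vacuole with the energy of pyrophosphate in place of ATP. Plant tissue short of oxygen makes little ATP, and enzymes that use pyrophosphate are known for their part in that state.

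Over the 12 channels 81.8% to 95.3% of gene probes had a signal well above background, and the number of arrays limits the precision. The 38 probes of the leaf marker list (chlorophyll-binding proteins, photosystem proteins and Rubisco) had a summed level of 19.0 to 20.3 log2 units in every group. At 24 h 4 of them were called lower and 1 higher in FR13A, where their median change was -0.005. In IR24 3 were called lower and none higher, and their median change was -0.33. Over all probes 10.4% were called either way in FR13A and 9.43% in IR24 at 24 h, against 1.57% and 2.08% at 15 min. The 13 probes of the seed marker list summed to 12.7 in FR13A and 13.0 in IR24 in constitutive leaves, to 13.0 to 13.1 and 13.4 to 13.8 at 15 min, and to 12.6 to 12.7 and 12.8 to 13.0 at 24 h, with 1 probe called higher in each genotype at both times. The 18 probes of the root or pollen list summed to 13.1 to 13.4 in FR13A and 13.3 to 13.7 in IR24 at 24 h, against 12.6 to 12.7 and 12.9 to 13.0 in constitutive leaves. At 24 h 2 of them were called higher and none lower in FR13A, and 1 higher and 1 lower in IR24. The part of any of these shifts in the values below was not tested. In leaf RNA, fewer cells of a type and less RNA per cell cannot be told apart.

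The isocitrate lyase transcript went from barely measurable to among the brightest changes of the array after 24 h in both genotypes alike. Levels are normalised log2 intensities of 1 channel, and they are compared within a probe only. In constitutive leaves FR13A had 6.68 and 6.11 on replicates 1 and 2, and IR24 had 6.23 and 6.29. At 15 min FR13A had 6.19 and 7.44, and IR24 had 7.49 and 6.73. At 24 h FR13A had 12.97 and 12.82, and IR24 had 13.23 and 12.64. The 4 channels at 24 h lay far above the other 8 and overlapped between the genotypes, whereas the untreated and 15 min channels overlapped with each other.

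At the low end the isocitrate lyase spot was close to the limit of the arrays. In each genotype 1 of the 2 constitutive channels was well above background, and at 15 min so were 1 of 2 FR13A channels and 2 of 2 IR24 channels. Over all channels 9 of 12 were well above background, and no channel of the 3 probes was saturated or marked as faulty. The mean rose from 6.40 to 12.89 in FR13A, a log2 change of 6.50 (SE 0.52), and from 6.26 to 12.94 in IR24, a log2 change of 6.67 (SE 0.52). These correspond to 90.5-fold and 102-fold on this scale, over a baseline in which 1 of the 2 constitutive channels of each genotype was not well above background. They ranked second in FR13A and first in IR24 among 18907 probes on the same scale. The background correction adds a constant of 50 to every spot, which compresses changes of dim spots, and with the scanner's own processed signals the changes were 8.44 in FR13A and 8.94 in IR24.

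PPDK rose at 24 h in both genotypes, but to a far higher level in FR13A. Its constitutive levels were 7.21 and 7.15 in FR13A and 7.03 and 6.35 in IR24. At 15 min they were 7.29 and 8.05 in FR13A and 7.14 and 6.74 in IR24. At 24 h they were 14.32 and 13.58 in FR13A and 10.54 and 10.17 in IR24, so that both IR24 channels stood above every earlier channel and both FR13A channels stood above those of IR24. All 12 channels were well above background.

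The change from constitutive leaves to 24 h was 6.77 (SE 0.38) in FR13A, or 109-fold, and 3.67 (SE 0.38) in IR24, or 12.7-fold. It ranked as the highest of all 18907 probes in FR13A and as number 10 in IR24. The scanner's processed signals gave 7.52 and 4.91. From low to high, the group means ran from IR24 constitutive (6.69), IR24 at 15 min (6.94), FR13A constitutive (7.18) and FR13A at 15 min (7.67) to IR24 at 24 h (10.36) and FR13A at 24 h (13.95). The first 4 neighbours in this order lay within or close to each other's spread, and the last 2 lay apart from them and from each other.

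The V-PPase probe had its large change in FR13A. Its levels there were 8.13 and 8.35 in constitutive leaves, 8.17 and 9.32 at 15 min, and 12.74 and 12.29 at 24 h. In IR24 they were 7.71 and 7.18, then 8.17 and 7.45, then 8.94 and 8.47. At 24 h the FR13A channels stood above all others, while the IR24 channels lay above both IR24 constitutive channels but within the span of the FR13A channels at 15 min. All 12 channels were well above background.

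The V-PPase change over constitutive leaves was 4.27 (SE 0.49) in FR13A, or 19.3-fold, and 1.26 (SE 0.49) in IR24, or 2.39-fold. These ranked as number 8 and number 346 of 18907. With 1 array left out, the IR24 change ranged from 0.99 without constitutive replicate 2 to 1.53 without constitutive replicate 1. The scanner's processed signals gave 4.58 in FR13A and 1.70 in IR24. The group means ran from IR24 constitutive (7.44), IR24 at 15 min (7.81), FR13A constitutive (8.24), IR24 at 24 h (8.70) and FR13A at 15 min (8.74) to FR13A at 24 h (12.51). Of neighbours in this order, IR24 constitutive and 15 min overlapped, as did IR24 at 15 min with FR13A constitutive and IR24 at 24 h with FR13A at 15 min.

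**Figure D1:**
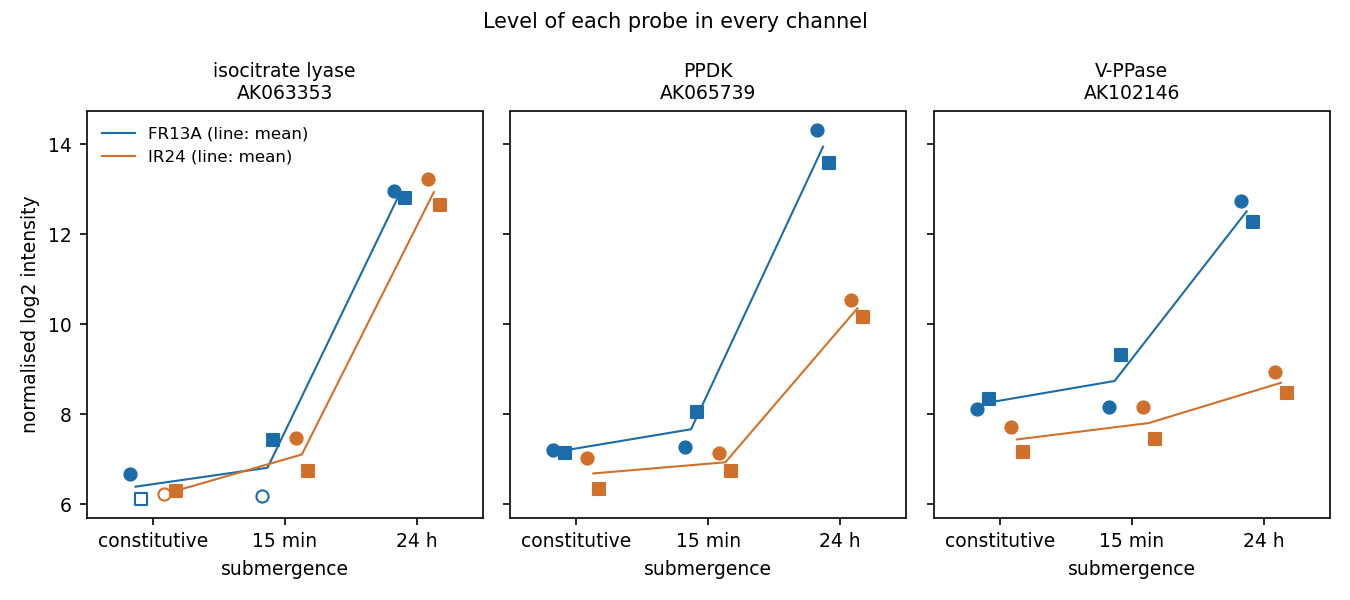
Normalised log2 intensity (vertical axis) of each of the 3 probes in constitutive leaves and after 15 min and 24 h of submergence (horizontal axis), with FR13A in blue and IR24 in orange. Circles are replicate 1, squares replicate 2, open symbols channels not well above background, and lines join the means of 2 arrays. At 24 h isocitrate lyase reaches 12.6 to 13.2 in both genotypes, whereas PPDK and V-PPase stand higher in FR13A than in IR24.

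As background for these 24 h values, at 24 h over constitutive leaves 4.46% of probes had a call upward in FR13A and 5.9% downward, against 4.79% and 4.64% in IR24, where a call is a limma p-value under 0.05 after Benjamini-Hochberg adjustment over all probes. These changes lie between arrays and compare groups that share the constitutive arrays. Since the 3 probes were chosen with these differences known, nothing is read from their share.

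Because both genotypes shared each array, the ratio of FR13A over IR24 is measured within a spot. At 24 h the log2 ratio of PPDK was 3.78 on replicate 1 and 3.41 on replicate 2, with a mean of 3.59 (SE 0.30), or 12.1-fold. That of V-PPase was 3.80 and 3.82, with a mean of 3.81 (SE 0.43), or 14.0-fold. That of isocitrate lyase was -0.26 and 0.17, with a mean of -0.04 (SE 0.46). PPDK ranked as number 15 and V-PPase as number 11 of 20292 probes with a ratio, and isocitrate lyase was close to 0. The background at this time was 3.49% called higher in FR13A and 4.14% lower, and nothing is read from the members' share.

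In constitutive leaves the ratios were smaller and none of the 3 passed the test. PPDK had 0.18 on replicate 1 and 0.80 on replicate 2, with a mean of 0.49 (95% interval -0.25 to 1.24, limma adjusted p = 0.464). V-PPase had 0.42 and 1.18, with a mean of 0.80 (interval -0.28 to 1.87, limma adjusted p = 0.402). Isocitrate lyase had 0.44 and -0.18, with a mean of 0.13 (interval -1.01 to 1.27, limma adjusted p = 0.941), and on each of these arrays the dimmer channel was not well above background, so its ratio compares a signal with the floor. Both arrays had FR13A above IR24 for PPDK and V-PPase, and the intervals of all 3 include 0 as well as differences above 2-fold. The background was 3.17% called higher and 2.98% lower.

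After 15 min of submergence the ratios were again not called. PPDK had 0.15 and 1.32, with a mean of 0.73 (interval -0.01 to 1.48, limma adjusted p = 0.274). V-PPase had 0.00 and 1.87, with a mean of 0.93 (interval -0.14 to 2.01, limma adjusted p = 0.340). Isocitrate lyase had -1.30 and 0.71, with a mean of -0.29 (interval -1.43 to 0.84, limma adjusted p = 0.850), and FR13A on replicate 1 was not well above background. The replicates of this group thus lay far apart for all 3 probes, each higher on replicate 2. V-PPase passed the test without 15 min replicate 1 (1.87, limma adjusted p = 0.032) and was at -0.0029 without 15 min replicate 2. The background was 2.42% called higher and 2.91% lower.

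The dye moved with part of these values. For isocitrate lyase, the genotype labelled with Cy5 was the brighter one on both constitutive arrays, and the genotype labelled with Cy3 was the brighter one on both 15 min arrays and both 24 h arrays. For PPDK and V-PPase the ratio was higher on replicate 2, where FR13A carried Cy3, in the constitutive and 15 min groups, while at 24 h both orientations gave a large excess in FR13A. A constant dye effect cancels in the mean of a pair of exchanged arrays, and the part of any other dye effect was not tested.

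**Figure D2:**
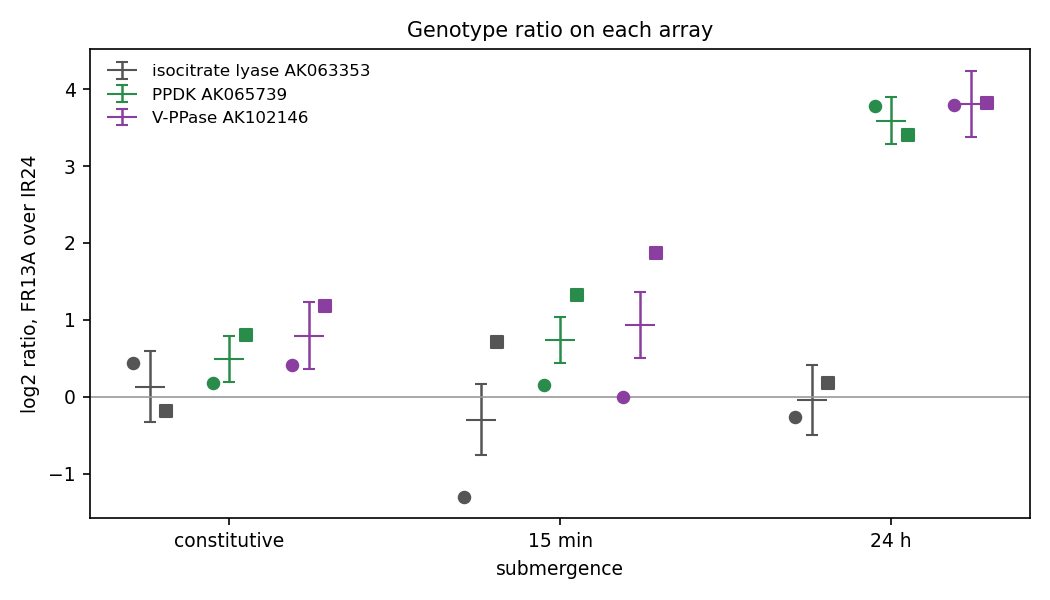
Log2 ratio of FR13A over IR24 (vertical axis) of the 3 probes in each group (horizontal axis). Circles are replicate 1 and squares replicate 2 with dyes exchanged, and the bar with whiskers is the mean of 2 arrays with its SE from the limma fit. The isocitrate lyase means lie between -0.29 and 0.13 with the 15 min arrays at -1.30 and 0.71, and PPDK and V-PPase reach 3.41 to 3.82 at 24 h.

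The genotype ratio of PPDK shifted by 3.10 log2 units (SE 0.42) from constitutive leaves to 24 h and that of V-PPase by 3.01 (SE 0.61), numbers 3 and 4 of 20291 probes by signed size. The ratio of isocitrate lyase shifted by -0.17 (SE 0.65). In this contrast 0.108% of probes were called, and the members were chosen with the 24 h ratios known. From constitutive leaves to 15 min the ratio shifted by 0.24 (SE 0.42) for PPDK, 0.14 (SE 0.61) for V-PPase and -0.43 (SE 0.65) for isocitrate lyase, with a limma adjusted p of 0.99997 for each. That contrast had 0 calls among 20311 probes, a background of 0%, and 428 probes at an unadjusted limma p under 0.05.

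Within each genotype 15 min of submergence gave no call for the 3 probes. In FR13A the log2 change was 0.42 (SE 0.52, limma adjusted p = 0.817) for isocitrate lyase, 0.49 (SE 0.38, limma adjusted p = 0.696) for PPDK and 0.50 (SE 0.49, limma adjusted p = 0.762) for V-PPase. In IR24 it was 0.85 (SE 0.52, limma adjusted p = 0.695), 0.25 (SE 0.38, limma adjusted p = 0.914) and 0.37 (SE 0.49, limma adjusted p = 0.904). All 6 means lay above 0, and each was under 2 of its own SE. The background at 15 min was 1.27% called higher and 0.291% lower in FR13A, and 1.89% and 0.19% in IR24.

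The arrays were scanned on 3 days, and 1 of them held an array of every group: constitutive replicate 1, 15 min replicate 2 and 24 h replicate 2. On that day the ratio of PPDK was 0.18, 1.32 and 3.41 in these groups, that of V-PPase 0.42, 1.87 and 3.82, and that of isocitrate lyase 0.44, 0.71 and 0.17. These are values of 1 array a group, which also differ in dye orientation, and the part of scan day in the ratios was not tested by them. With scan day as a block the fit gave a 24 h ratio of 4.41 for PPDK, 5.04 for V-PPase and -0.06 for isocitrate lyase. These values are projected to the first scan day, which held no 24 h array, so they are not means adjusted for day. The same block left the 24 h change of isocitrate lyase at 6.34 in FR13A and 6.52 in IR24, that of PPDK at 6.49 and 3.39, and that of V-PPase at 4.13 and 1.12.

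Over the 12 channels the levels of PPDK and V-PPase had a Pearson r of 0.936 (Spearman rho 0.923), those of isocitrate lyase and PPDK 0.905 (rho 0.685), and those of isocitrate lyase and V-PPase 0.717 (rho 0.664). These describe the same 6 arrays, whose channels share spots and the contrast between 24 h and the earlier times. PPDK and V-PPase were chosen for their FR13A excess at 24 h, so nothing is read from the order of these values.

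The array holds further probes with the names of these enzymes, which the choice of members did not use. Of 7 probes described as V-PPase, 6 passed the filter. AK099807 was higher in FR13A at every time, by 0.78 (SE 0.14, limma adjusted p = 0.0399) in constitutive leaves, 0.77 (SE 0.14, limma adjusted p = 0.0444) at 15 min and 0.93 (SE 0.14, limma adjusted p = 0.0192) at 24 h, on both arrays of each. Each of these calls was lost when 1 or another array was left out (adjusted p up to 0.269). Its 24 h change was 0.40 in FR13A (SE 0.25, limma adjusted p = 0.385) and 0.25 in IR24 (SE 0.25, limma adjusted p = 0.662), neither of which was called.

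AK066933, also described as a rice V-PPase, moved opposite to AK102146. Its FR13A levels were 14.17 and 14.24 in constitutive leaves and 12.83 and 13.25 at 24 h, and its IR24 levels were 14.11 and 14.07, then 12.76 and 12.62. The constitutive and 24 h levels did not overlap. At 15 min the levels were 13.77 and 14.20 in FR13A and 13.42 and 13.91 in IR24, which overlapped between the genotypes and, in FR13A, with constitutive leaves. From constitutive leaves to 24 h AK066933 fell by 1.17 log2 units in FR13A (SE 0.21, limma adjusted p = 0.00777) and by 1.40 in IR24 (SE 0.21, limma adjusted p = 0.00309). The IR24 call held without each array in turn, and the FR13A call was lost without either constitutive array or 24 h replicate 1 (adjusted p up to 0.0835).

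No remaining V-PPase probe was called at 24 h. AK107838 changed by -0.17 in FR13A and -0.29 in IR24, AK107275 (similar to a grape H+-pyrophosphatase, with 2 of 12 channels well above background) by -0.10 and -0.16, and AK070310 (similar to an Arabidopsis V-PPase) by 0.06 and -0.07. With the scanner's processed signals the dim AK107275 was at -1.35 in IR24 and passed the test (limma adjusted p = 0.0223). AK109809 did not pass the filter and had no channel well above background. Of the 6 measured probes of this enzyme, AK102146 alone had a change above 1 log2 unit upward in either genotype. The members were chosen with 24 h values known, so nothing is read from that contrast, here or for isocitrate lyase below.

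AK063353 was likewise the single isocitrate lyase probe with a large change. AK111166, described by an orchid isocitrate lyase, changed by 0.15 in FR13A and 0.23 in IR24 (SE 0.22 for both). AK107356, described by a fungal isocitrate lyase, changed by 0.45 and 0.54 (SE 0.16 for both, limma adjusted p = 0.124 and 0.0709). Neither was called, and all 12 channels of both were well above background. PPDK had 1 probe on the array. Whether probes with the same description bind each other's transcripts was not tested.

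**Figure D3:**
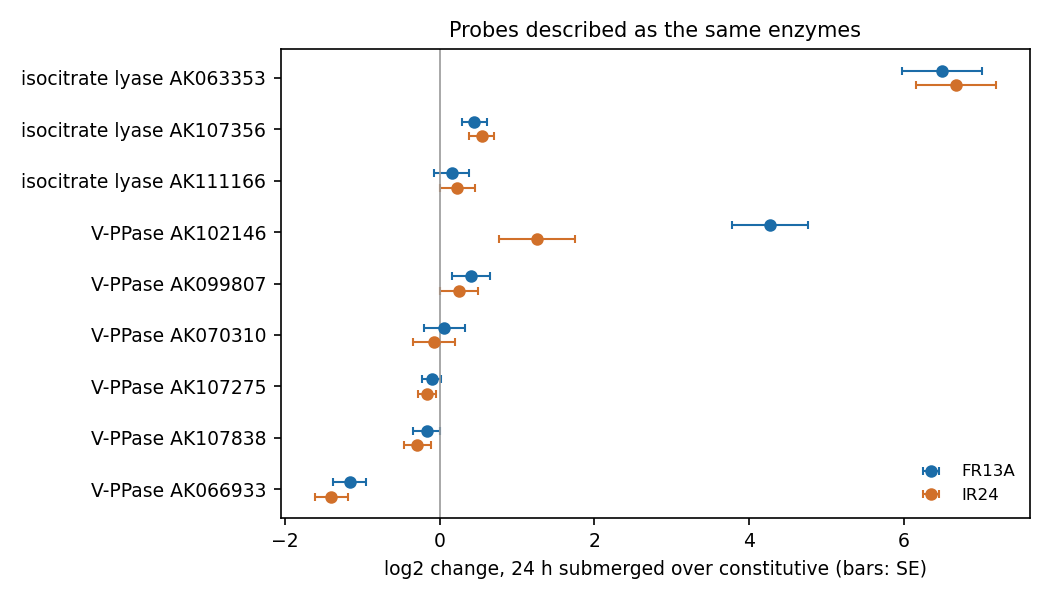
Log2 change from constitutive leaves to 24 h (horizontal axis, whiskers SE of the limma fit) of every measured probe described as isocitrate lyase or V-PPase (vertical axis), in FR13A (blue) and IR24 (orange). AK063353 in both genotypes and AK102146 in FR13A stand far to the right of the other probes of their enzyme. In IR24 AK102146 lies at 1.26 and AK099807 at 0.25. AK063353 and AK102146 were chosen with 24 h values known, and AK066933 lies at -1.17 and -1.40.

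The list of enzymes of the glyoxylate cycle, and of those it shares with the citric acid cycle, held 21 probes besides AK063353. The isocitrate lyase probes AK111166 and AK107356 were among them. Of these 21 probes, 18 had a within-genotype value. At 24 h none of the 18 was called higher in either genotype, and 2 were called lower in FR13A and 3 in IR24, with medians of -0.11 and -0.01 against -0.01 and 0.00 over all probes. The background was 4.46% upward and 5.9% downward in FR13A, and 4.79% and 4.64% in IR24, so that none of 18 called higher is near the background. A tobacco-like NAD-malate dehydrogenase (AK058477), which oxidises malate to oxaloacetate, fell by 2.36 in FR13A (SE 0.24, limma adjusted p = 0.00041) and by 1.41 in IR24 (SE 0.24, limma adjusted p = 0.00621). A nodule-enhanced malate dehydrogenase-like gene (AK071297) fell by 1.75 (limma adjusted p = 0.000648) and by 0.91 (limma adjusted p = 0.0192), and cytoplasmic malate dehydrogenase AK066396 fell by 0.85 in IR24 (limma adjusted p = 0.0269). Both FR13A calls held without each array in turn, and the IR24 calls did not (adjusted p up to 0.216). No probe was described as malate synthase, the other enzyme particular to the cycle, although the word pattern caught a 2-isopropylmalate synthase of leucine synthesis (AK066890) and a malic enzyme (AK065801).

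The list also held genotype differences. Over all probes 6.15% were called between genotypes in constitutive leaves, 5.33% at 15 min and 7.63% at 24 h. Citrate synthase AK072950, which joins acetyl-CoA to oxaloacetate, was lower in FR13A, at -0.80 in constitutive leaves (SE 0.10, limma adjusted p = 0.0115) and at -0.98 at 15 min (SE 0.10, limma adjusted p = 0.00688), the latter held without each array in turn. The malate dehydrogenase-like gene AK101730 was higher in FR13A at all 3 times, at 0.66, 0.69 and 0.63 (SE 0.10, limma adjusted p = 0.0224, 0.0216 and 0.0215). At 24 h AK066396 was at 0.66, AK059248, another cytoplasmic malate dehydrogenase, at -0.53 and AK071297 at -0.82 (limma adjusted p = 0.0331, 0.0271 and 0.0421). Apart from citrate synthase at 15 min, each of these calls was lost when 1 or another array was left out (adjusted p up to 0.251).

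Fatty acid beta-oxidation supplies the acetyl-CoA that the glyoxylate cycle uses. Its list was picked by words in the probe descriptions, and a match does not show that a gene acts in this pathway. Of 18 probes, 15 had a within-genotype value, and at 24 h 3 were called higher in each genotype, with 1 lower in FR13A and none in IR24, against 4.46% and 4.79% called higher and 5.9% and 4.64% lower over all probes. An ACX3-like acyl-CoA oxidase (AK066934), the first enzyme of the pathway, rose by 0.87 in FR13A (SE 0.24, limma adjusted p = 0.0484) and 0.96 in IR24 (SE 0.24, limma adjusted p = 0.0360). Enoyl-CoA hydratase-like genes AK101814 and AK068963 rose by 0.59 and 0.52 in FR13A (limma adjusted p = 0.0157 and 0.0473) and by 0.49 and 0.72 in IR24 (limma adjusted p = 0.0354 and 0.0126). A LACS9-like long chain acyl-CoA synthetase (AK061697) fell by 0.75 in FR13A (limma adjusted p = 0.0381).

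The largest value of that list belonged to 3-ketoacyl-CoA thiolase AK069768, which releases acetyl-CoA, at 1.21 in FR13A and 1.24 in IR24 (SE 0.36), and it was not called (limma adjusted p = 0.0657 and 0.0648). It was picked out after its values were seen. The list medians were 0.23 and 0.18. Every call of this list at 24 h was lost when 1 or another array was left out, with adjusted p up to 0.355. Between genotypes, the barley-like acyl-CoA oxidase AK063051 was at -0.95 in constitutive leaves (SE 0.14, limma adjusted p = 0.0306), from replicate 2 alone because the spot of replicate 1 was marked and set missing, and with that spot kept it was at -0.45 and not called. The rapeseed-like acyl-CoA synthetase AK063337 was at -0.49 at 15 min (SE 0.09, limma adjusted p = 0.0477). Neither call held without each array in turn, and no probe of the list was called between genotypes at 24 h. The shares over all probes were 6.15% in constitutive leaves, 5.33% at 15 min and 7.63% at 24 h.

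The list of enzymes that turn over pyruvate, phosphoenolpyruvate and malate, to which PPDK belongs, held 30 further probes, 27 of them with a within-genotype value, of which 2 were called higher in each genotype at 24 h, 3 lower in FR13A and 2 lower in IR24. Over all probes the shares were 4.46% and 4.79% higher, 5.9% lower in FR13A and 4.64% lower in IR24, and with so few calls the list is not set apart from them. A maize-like phosphoenolpyruvate carboxykinase (AK102392), which makes phosphoenolpyruvate from oxaloacetate, rose by 1.52 in FR13A (SE 0.16, limma adjusted p = 0.000514) and 1.53 in IR24 (SE 0.16, limma adjusted p = 0.00051). A phosphoenolpyruvate carboxylase kinase-like gene (AK101080), whose product activates phosphoenolpyruvate carboxylase by phosphorylation, rose by 2.03 (SE 0.22, limma adjusted p = 0.000499) and 2.26 (SE 0.22, limma adjusted p = 0.000283). These 4 calls held without each array in turn.

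A further 3 genes of the list were called lower at 24 h. A pyruvate kinase-like gene (AK061668), for the step from phosphoenolpyruvate to pyruvate, fell by 0.65 in FR13A and fell by 0.81 in IR24 (limma adjusted p = 0.0344 and 0.0146). A PEPC1-like phosphoenolpyruvate carboxylase (AK066635), which makes oxaloacetate, fell by 0.65 in each (limma adjusted p = 0.0124 and 0.0139). NADP-dependent malic enzyme AK070360, which makes pyruvate from malate, fell by 0.95 in FR13A (limma adjusted p = 0.0257). The calls of these 3 genes were each lost when 1 or another array was left out (adjusted p up to 0.248). Between genotypes, none of the 28 further probes with a ratio was called at any time. Over all probes 6.15% were called either way in constitutive leaves, 5.33% at 15 min and 7.63% at 24 h, and none of 28 is near that background. At 24 h the ratios of the 28 probes ran from -0.52 to 0.47 against 3.59 for PPDK. PPDK was chosen with that ratio known, so nothing is read from the contrast.

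The list of enzymes that use or split pyrophosphate held 21 further probes, the other V-PPase probes among them, and 20 had a within-genotype value. At 24 h none was called higher, while 3 were called lower in FR13A and 5 in IR24, with medians of -0.26 and -0.20 and shares over all probes of 5.9% and 4.64% called lower. A soluble inorganic pyrophosphatase (AK070562), which splits pyrophosphate without storing its energy, fell by 1.44 in FR13A (SE 0.23, limma adjusted p = 0.00459) and by 1.75 in IR24 (SE 0.23, limma adjusted p = 0.00168). A UDP-glucose pyrophosphorylase, which makes or uses pyrophosphate in sucrose metabolism, fell by 0.80 in FR13A (limma adjusted p = 0.0400) and fell by 1.29 in IR24 (limma adjusted p = 0.00455) (AK104344).

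A pyrophosphate-dependent phosphofructokinase alpha subunit-like gene (AK065052), of the glycolytic step that can run on pyrophosphate, fell by 0.79 in IR24 (limma adjusted p = 0.0274). The IR24 calls of AK070562 and AK104344 held without each array in turn, and the FR13A calls of both, and that of AK065052, did not (adjusted p up to 0.273). Another gene of this enzyme (AK071798) was higher in FR13A in constitutive leaves at 0.76 (SE 0.10, limma adjusted p = 0.0157), or 1.53 with the scanner's processed signals, a call lost without either constitutive array. Apart from AK099807, no other probe of the list was called between genotypes at any time. The shares over all probes were 6.15% in constitutive leaves, 5.33% at 15 min and 7.63% at 24 h.

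The vacuolar proton ATPase, the pump that does the work of V-PPase with ATP, was represented by 18 probes. Of these 14 had a within-genotype value, and at 24 h none was called in FR13A and 1 was called higher in IR24, the vatp-P1 gene AK063178 at 0.54 (SE 0.15, limma adjusted p = 0.0495), which was lost without any 1 of the 6 arrays. Over all probes 10.4% were called either way in FR13A and 9.43% in IR24, and a count this small is not set apart from that background. The list ran from -0.47 to 0.47 in FR13A and from -0.64 to 0.54 in IR24. A subunit E-like gene (AK072778) was lower in FR13A at all 3 times, at -2.12, -1.57 and -1.79 (SE 0.18, limma adjusted p = 0.00352, 0.0103 and 0.00435). It was the single call between genotypes among 17 measured probes at each time, and each of its calls was lost without 1 array of its own group. The shares over all probes were 6.15%, 5.33% and 7.63% called between genotypes at the 3 times, and 1 of 17 is near them.

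**Figure D4:**
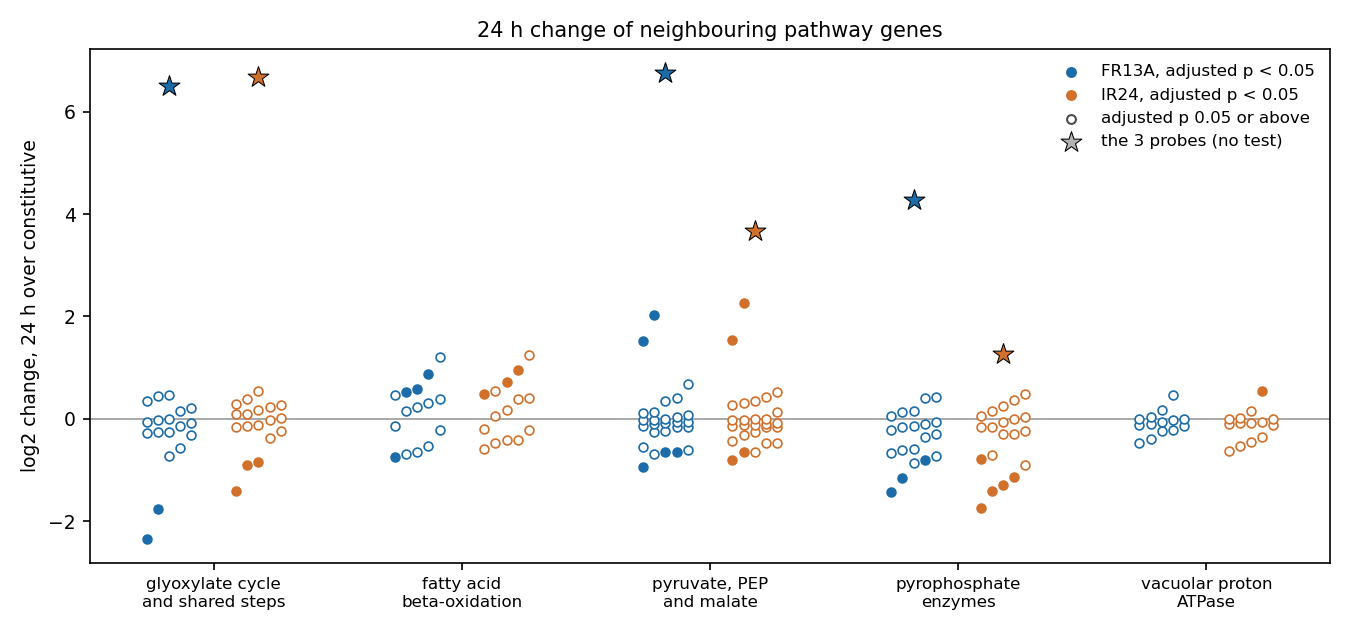
Log2 change from constitutive leaves to 24 h (vertical axis) of each probe in 5 gene lists (horizontal axis), in FR13A (blue) and IR24 (orange). Filled points passed limma's test, open points did not, and stars are the 3 probes, shown without a test. The stars lie above every other probe of their list in both genotypes, and the 3 probes were chosen with 24 h values known.

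The probes with the most similar profile were found among 1002 probes whose channels span at least 2 log2 units, by Pearson r over the 12 channels, which share the 6 arrays and the contrast of 24 h with earlier times. Closest to isocitrate lyase was a maize-like cytochrome P450 (AK099925, r = 0.991), with 24 h changes of 3.83 in FR13A and 3.59 in IR24. It was followed by AK068606 (r = 0.982), AK061510 (r = 0.982), an anthocyanidin reductase-like gene (AK067411, r = 0.982) and a NAC1-like transcription factor gene (AK071464, r = 0.981). For these 5 probes the 24 h ratio of FR13A over IR24 ran from -0.67 to 0.12. They were picked by likeness over channels that include both genotypes at 24 h, so nothing is read from these ratios.

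Closest to PPDK was AK107152 (r = 0.983), described by an uncharacterised Arabidopsis sequence, which changed by 5.41 in FR13A and 2.20 in IR24. It was followed by a cytochrome P450-like gene (AK110659, r = 0.980), a gene like maize lethal leaf-spot 1 (AK111974, r = 0.977), an ACC oxidase-like gene (AK102472, r = 0.977) and AK063611 (r = 0.971). Closest to V-PPase were 4-hydroxyphenylpyruvate dioxygenase (AK058890, r = 0.965), of tyrosine breakdown, and cytosolic phosphoglycerate kinase (AK070705, r = 0.959) of glycolysis, both by similarity to other cereals. The latter changed by 3.52 in FR13A and 0.14 in IR24. The same ACC oxidase-like AK102472 (r = 0.938) and PPDK itself (r = 0.936) were also among the closest.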

How the data were processed

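Per the file headers, each of the 6 array files holds spot and background values as scanner intensity in Cy3 and Cy5, processed intensity, and a log10 ratio of Cy5 over Cy3. Agilent Feature Extraction 8.1 made them, per the submitters' processing notes. In the deposited table of log10 ratios every column has a median of 0, and its correlation with the scanner's Cy5 over Cy3 ratio was 1 for replicate 1 and -1 for replicate 2, so it is FR13A over IR24.

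Of 22575 spots, 162 negative and 918 positive controls were left out. In limma 3.58.1 under R 4.3.3, background was corrected with normexp (offset 50), arrays were normalised by loess, and spots marked as non-uniform or outliers were set missing. Ratios of 20315 probes were fitted with 1 mean per time (3 residual degrees of freedom, with the spread shared across probes). Within-genotype changes used the separate-channel model after Aquantile normalisation on 18907 probes (intraspot correlation 0.493), which rests on normalisation between arrays. A call is a Benjamini-Hochberg adjusted p under 0.05 over all probes of a comparison. The fits were tested on simulated data. Arrays were grouped by their labels. Alternatives were the processed signals, median centring, no filter, marked spots kept, scan day or replicate number as a block, each array left out (the separate-channel fits then kept the correlation of all arrays), channels scaled to 1 median, and the deposited ratios.

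The members, lists and tests were chosen with earlier results of these data known. Lists are word patterns on probe descriptions, many of which name a similar sequence of another species, written here as "like". Named probes are the members, other probes of their enzymes, up to 4 called probes per list and comparison with the smallest p, and 5 probes most like each member, of which 1 is not reported here. Deviations from the group mean correlated between same-numbered arrays at 0.0938 (constitutive and 15 min), 0.0625 (constitutive and 24 h) and 0.401 (15 min and 24 h). Same-numbered arrays of the 15 min and 24 h groups share scan day as well as dye orientation. The numbers were not taken as pairs in the main fits, a choice that these values do not settle, and fits with them as a block are given below. No coordinates are printed, because 0 array accessions matched the RefSeq gene table.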

Additional observations from a re-analysis of the deposited data

How the results depend on the processing

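Of 204 alternative values of the 3 probes in comparisons without the 24 h arrays, 187 kept their sign, 17 had the opposite one and 1 newly passed the test. Of 162 values that involve 24 h, given with no test, 157 kept their sign, including every change within a genotype, and the 5 of opposite sign were all ratios or ratio changes of isocitrate lyase. For the other probes named in the report, 538 values kept direction and side of the threshold, 220 kept the direction and no longer passed the test, 8 had the opposite direction, 2 without a test moved by more than the spread, and 1 newly passed. Many values in these counts could not differ from the report's fit. A group's estimate stays the same when an array of another group is left out. Dropping the filter or keeping marked spots does not move the 3 probes, and the replicate block does not move differences between groups. The counts of kept signs therefore overstate how far the values were put to a trial. With 2 arrays a group, leaving out 1 array leaves a lone array that is assumed to vary like the other groups, and dim spots limit the low isocitrate lyase levels. The causes of the differences below were not tested, except that fewer arrays, or a block, leave fewer residual degrees of freedom. Group ratios under a block, also in the counts, are fitted for the first scan day or for replicate 1. They are not means over the block, so their shifts and sign changes can come from that choice of reference.

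With the scanner's processed signals, the 24 h change of isocitrate lyase was 8.44 in FR13A and 8.94 in IR24, and that of PPDK 7.52 and 4.91. The PPDK ratio was 1.03 in constitutive leaves and 1.31 at 15 min, the 15 min ratio of isocitrate lyase -1.07 and its 15 min change in IR24 2.37, none of them called. Within the 1 scan day that held every group, the 15 min ratios were 0.71 for isocitrate lyase, 1.32 for PPDK and 1.87 for V-PPase, and the ratio changed from constitutive leaves to 15 min by 1.14 for PPDK and 1.45 for V-PPase.

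Where arrays were centred on their median without loess, 239 probes were called between genotypes in constitutive leaves (1249 in the report's fit), 182 at 15 min (1083) and 306 at 24 h (1549). This setting called 0 for the ratio change to 24 h by limma (22, with 337 at an unadjusted p under 0.05 under the centring), 123 for FR13A at 15 min (296), 1034 for FR13A at 24 h (1958) and 851 for IR24 at 24 h (1782). The constitutive ratio of isocitrate lyase was then -0.043, the 24 h change of AK107275 in FR13A 0.21, and that of AK070310 -0.013 in FR13A and 0.0037 in IR24.

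Scan day as a block leaves 1 residual degree of freedom in the ratio fit. Its group ratios, and the calls on them, are for the first scan day, which held constitutive replicate 2 alone. It called 167 probes in constitutive leaves and 0 by limma at 15 min, at 24 h and for the ratio change to 24 h, with 3982, 4519 and 3387 at an unadjusted p under 0.05. Within genotypes at 15 min it called 93 in FR13A and 178 in IR24 (393). The 24 h ratios were 4.41 for PPDK and 5.04 for V-PPase, and the V-PPase ratio changed by 3.87 to 24 h. The constitutive ratio of isocitrate lyase was -0.18, the 15 min change of PPDK in IR24 -0.028, and the 24 h change of AK070310 in FR13A -0.023.

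With the replicate block, which is also the dye orientation, 816 probes were called in constitutive leaves, 689 at 15 min and 0 by limma for the ratio change to 24 h (1779 at an unadjusted p under 0.05). The constitutive ratio of isocitrate lyase was -0.17 under this block, and the 24 h ratios were 3.35 for PPDK and 3.37 for V-PPase. These are values fitted for replicate 1, with FR13A in Cy5, and not means of the exchanged arrays.

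Leaving out each array in turn, the constitutive ratio of isocitrate lyase ranged from -0.18 to 0.44 and its 15 min ratio from -1.30 to 0.71, while the 15 min ratio of V-PPase ranged from -0.0029 to 1.87. The ratio change to 15 min ranged from -1.43 to 0.57 for isocitrate lyase, -0.34 to 0.83 for PPDK and -0.80 to 1.07 for V-PPase. The 15 min change ranged from -0.20 to 1.04 for isocitrate lyase in FR13A, -0.074 to 1.08 for V-PPase in FR13A and -0.089 to 0.59 for PPDK in IR24. The 24 h change ranged from -0.10 to 0.40 (FR13A) and -0.16 to 0.62 (IR24) for AK111166, from -0.079 to 0.20 for AK070310 in FR13A and from -0.0020 to 0.50 for AK099807 in IR24. Called probes ranged from 178 to 1306, 308 to 704 and 447 to 1479 between genotypes in constitutive leaves, at 15 min and at 24 h, and from 0 to 7 for the ratio change to 24 h. Within genotypes they ranged from 19 to 272 (FR13A) and 105 to 401 (IR24) at 15 min, and from 761 to 2080 and 626 to 1873 at 24 h. Of the calls for single listed probes, 13 of 17 between genotypes and 17 of 29 within a genotype held with the processed signals, 3 and 13 with median centring, 0 and 20 with scan day as a block, and 9 and 26 with the replicate block. Of the same calls, 1 of 17 between genotypes and 9 of 29 within a genotype held without each array in turn, and all kept their sign.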
